A study of Mus musculus with 12 samples.

Results

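GW8510, a small molecule that the study describes as a putative inhibitor of the cell-cycle kinase CDK2, changed the RNA of many genes the same way in both mouse islet tumour lines to which it was given. The lines are aTC1, which comes from a glucagon-producing tumour, and bTC3, which comes from an insulin-producing tumour, from mice in which a hormone gene promoter drives the SV40 large T antigen in islet cells. In each line 3 cultures, labelled as biological replicates, received 3.3 µM GW8510 in 0.1% DMSO, and 3 received 0.1% DMSO alone. All were collected on day 5, and RNA of each was read on 1 Affymetrix Mouse Genome 430A array, which gave 12 arrays in 4 groups. A gene was called shared where all 3 GW8510 arrays lay strictly above, or strictly below, the 3 DMSO arrays of the same line, and in the same direction in both lines. Of 12255 genes, 2871 (23.4%) met this rule, of which 1533 were higher with GW8510 in both lines (12.5%) and 1338 were lower in both (10.9%). Another 777 genes (6.34%) lay apart in opposite directions, 2652 lay apart in aTC1 alone, 1983 in bTC3 alone and 3972 in neither. These counts describe the rule itself, and no test was made of them. In arrays of whole cultures, less RNA per cell and fewer cells with the RNA cannot be told apart. In its account of alpha cells, the study mentions toxicities at the concentration used for these arrays. It chose a lower concentration for its further experiments. The part of toxicity in the shared changes was not tested.

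Cyclin-dependent kinases drive the cell cycle by phosphorylating the retinoblastoma protein and its relatives, which frees E2F factors to switch on genes of DNA replication, and members of the same kinase family phosphorylate RNA polymerase II during transcription. The p53 protein acts on the same cycle by inducing Cdkn1a, the CDK inhibitor p21. Large T antigen binds both p53 and the retinoblastoma family. Its action on them in these cultures, with DMSO or with GW8510, was not measured. Islet endocrine cells also run a large secretory pathway and express a set of neuronal genes for granule release, and several of the genes described here belong to it.

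The labels of the lines were checked against their hormones. Ins2 was at the upper bound of the scale, an intensity of 20000, on all 6 bTC3 arrays and between 95.2 and 182 on the aTC1 arrays. Gcg, the glucagon gene, was at 20000 on all aTC1 arrays, and it was also bright in bTC3, from 5997 to 12890. Among the arrays, replicate 3 of bTC3 with GW8510 stood apart, with a median intensity of 199.9 against 173.7 to 182.0 for the other 11. Without it, 1583 genes were higher and 1744 were lower in both lines, so that lower genes became the larger group. The rule is easier to meet with fewer arrays. The 5′ actin control read 11863 to 13361 on the aTC1 arrays with GW8510 against 13878 to 14659 with DMSO, and 16457 to 17420 against 16882 to 17117 in bTC3. The 3′ control read 18607 to 19660 on the aTC1 arrays with GW8510 and was at the upper bound of 20000 on all others. The log2 ratio of 3′ to 5′, which that bound limits, was 0.56 to 0.65 with GW8510 against 0.45 to 0.53 with DMSO in aTC1. In bTC3 it was 0.20 to 0.28 against 0.22 to 0.24. Of the marker genes of other cell types, 6 of 20 of immune cells, 5 of 21 of fibroblasts and endothelium (Cdh5, Col1a2, Pdgfrb, Rgs5 and Tek) and 5 of 13 of acinar and ductal cells (Cela1, Ctrb1, Krt7, Muc1 and Pnliprp1) were higher on average, and none was lower, beside 26.0% and 20.7% of all genes. The immune and fibroblast shares lie near that of all genes. The acinar and ductal count was 3 without any 1 of these arrays: replicates 1 and 3 of aTC1 with DMSO, 1 and 2 of aTC1 with GW8510, 1 and 2 of bTC3 with DMSO and 3 of bTC3 with GW8510. The fibroblast and endothelial count was 8 without replicate 3 of aTC1 with GW8510, and 1 gene of it was lower without replicate 1 of that group. Their summed intensity with GW8510 against DMSO was 2128 to 2474 against 1439 to 1542 (immune) and 4053 to 4591 against 1514 to 1538 (fibroblast and endothelial) in aTC1, and 3684 to 3923 against 2082 to 2137 (acinar and ductal). In bTC3 these sums were 1441 to 1677 against 1320 to 1421, 1631 to 1922 against 1419 to 1624 and 1266 to 1310 against 971 to 1077. With GW8510 every sum lay above all DMSO arrays of its line. The 6 immune genes were Cd3e, Cd68, Cd74, H2-Aa, Laptm5 and Lcp1. Much of the rise of the immune sum in aTC1 came from 1 gene, Cd68, which encodes a lysosomal protein. Its mean there was 61.6 with DMSO and 655 with GW8510. Ptprc, the pan-leukocyte gene, had group means of 20 to 21.2, at or near the lower bound of 20, and Cd34, of endothelium, had means of up to 20.8. The part of these differences in the results below was not tested.

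**Figure D1:**
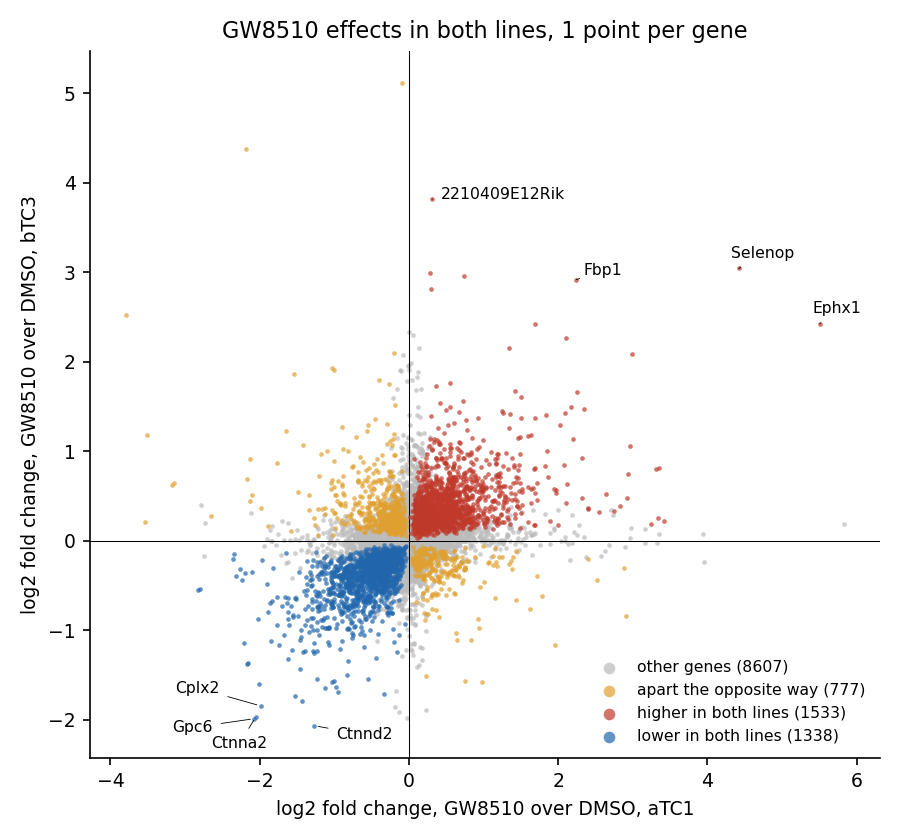
Log2 fold change of GW8510 over DMSO in aTC1 (x axis) against bTC3 (y axis), with 1 point per gene over 12255 genes. Red and blue points are the 1533 genes higher and the 1338 genes lower in both lines, orange points the 777 genes apart in opposite directions, and grey points all other genes. Ephx1 and Selenop stand farthest out among the genes higher in both, and Gpc6, Ctnna2, Cplx2 and Ctnnd2 are among the lowest in both.

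Because the rule used the arrays of both lines at once, a second count took the genes called in 1 line and read them in the other. Calls were made with limma at an adjusted p under 0.05, with all 12 arrays in 1 fit, so that each effect came from the arrays of its own line while the estimate of spread came from both lines. In aTC1, 2470 genes were higher (20.2% of all genes), and of these 1111 (45%) were also higher in bTC3 and 144 (5.83%) were lower there. Over all genes 19.7% were higher and 14.3% were lower in bTC3. Of 2596 genes lower in aTC1 (21.2%), 1108 (42.7%) were lower in bTC3 and 303 (11.7%) were higher. Read the other way, 46.0% of the 2417 genes higher in bTC3 were higher in aTC1, and 63.1% of the 1757 genes lower in bTC3 were lower in aTC1. Over 12255 genes the effects of the lines had a Pearson correlation of 0.38 and a Spearman correlation of 0.41, a description across genes, which are not independent replicates.

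The average effect of GW8510 was taken as the mean of the log2 fold changes of the lines. In limma 3192 genes were higher (26.0%) and 2532 lower (20.7%) by this average, and the median over all genes was 0.06. The list counts below are to be read beside these shares. Counts of shared members are to be read beside 12.5% higher and 10.9% lower over all genes. Shared genes had a median average effect of 0.40 when higher and of -0.44 when lower. Most shared effects were modest. Only 99 of the genes higher in both lines changed at least 2-fold on average and 28 did so in each line, and the corresponding counts for lower genes were 93 and 34. The rule was passed with any gap between arrays, however small. Idh3a was just inside it among higher genes, with bTC3 intensities of 2736.0, 2494 and 2666 with DMSO and of 2736.4, 2765 and 2762 with GW8510. Galt was just inside among lower genes, with its lowest DMSO array and its highest GW8510 array in bTC3 both at 419.7 to 1 decimal. Ttr, at 20000 on all bTC3 arrays, and Asb5, at 20 on all aTC1 arrays, were just outside.

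The shared genes often differed in size between the lines. The difference of the effects passed limma's test at an adjusted p under 0.05 in 536 of the 1533 higher genes (35%) and in 433 of the 1338 lower genes (32.4%), beside 28.5% of all genes. Of those that differed, 376 of the higher genes and 360 of the lower genes moved more in aTC1. The shares of genes that differed are a description, since the same arrays chose the genes. Shared genes were also brighter, with a median mean intensity of 743 (higher) and 795 (lower) against 274 over all genes. How far the choice or the brightness bears on these shares was not tested. Other probe sets of the same genes, which the rule had not used but which lay on the same arrays, gave a partial check. Of 1178 such probe sets for higher genes 88.7% had an average effect above 0, and of 1175 for lower genes 82.5% had one below 0. A smaller share, 42.4% and 41.7%, lay apart the same way in both lines.

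Among genes higher in both lines, the 2 largest average effects were those of a detoxifying enzyme and a selenium carrier. Ephx1 encodes microsomal epoxide hydrolase, which opens reactive epoxides. Its intensity was 134.7, 97.9 and 117.1 on the aTC1 arrays with DMSO and 5242, 5018 and 5516 with GW8510, and in bTC3 it was 328, 305 and 304 with DMSO and 1706, 1444 and 1911 with GW8510. All GW8510 arrays lay far above all DMSO arrays, with an average effect of 3.97 ± 0.08 (log2, SE; 15.6-fold), a description, since the same arrays chose the gene. Selenop, the plasma selenium carrier selenoprotein P, read 161.8, 155.8 and 160.7 with DMSO and 3295, 3468 and 3472 with GW8510 in aTC1, and 45.6, 43.6 and 59.3 against 444, 349 and 426 in bTC3. Its average effect was 3.73 ± 0.08, or 13.3-fold.

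Fbp1, the fructose-1,6-bisphosphatase of gluconeogenesis, was bright in aTC1 and dim in bTC3, and it was higher with GW8510 in both. It read 1883, 1827 and 1835 with DMSO and 8878, 8565 and 8830 with GW8510 in aTC1, and 151.5, 137.1 and 148.7 against 1071, 1090 and 1140 in bTC3. The fold was 4.74 in aTC1 and 7.55 in bTC3. Tff3, a secreted trefoil peptide of mucosal surfaces, rose 7.98-fold in aTC1 and 4.25-fold in bTC3. Cox7a1, the heart and muscle form of a cytochrome c oxidase subunit, had nearly the same size in both lines. Its intensities were 348, 359.8 and 331 with DMSO and 950.2, 994 and 1002 with GW8510 in aTC1, and 275, 279 and 251 against 797, 834 and 828 in bTC3, so that its fold was 2.84 and 3.05 (difference of log2 effects -0.11, adjusted p = 0.397).

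Calcium-binding and cytoskeletal genes recurred among the leading higher genes. S100a3, S100a4 and S100a6, small EF-hand proteins, had average effects of 2.19, 2.08 and 2.01, although S100a3 was dim, at 20 to 36.3 with DMSO. The galectin gene Lgals1 had an effect of 2.26 in aTC1 and 1.66 in bTC3, and its other probe set gave an average of 2.41. In the list of S100, annexin and actin cytoskeleton genes, 20 of 37 measured genes were higher on average, 2 (Tmsb4x and Zyx) were lower, and the list's median was 0.17 beside 0.06 over all genes. Shared members numbered 15 higher and 0 lower, among them S100a10 (1.44) and the intermediate filament gene Vim (0.52). Blnk, an adaptor of B-cell receptor signalling, rose 4.51-fold in aTC1 and 2.82-fold in bTC3. C1ql3, a secreted C1q-like protein, rose 3.23-fold and 5.36-fold. Mgst1, a microsomal glutathione transferase, had an average of 1.91, but its other probe set gave 0.08. Pqlc3 (2.06) and 2210409E12Rik (2.06) complete the leading group, and the effect of 2210409E12Rik came almost wholly from bTC3 (3.82, against 0.31 in aTC1).

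**Figure D2:**
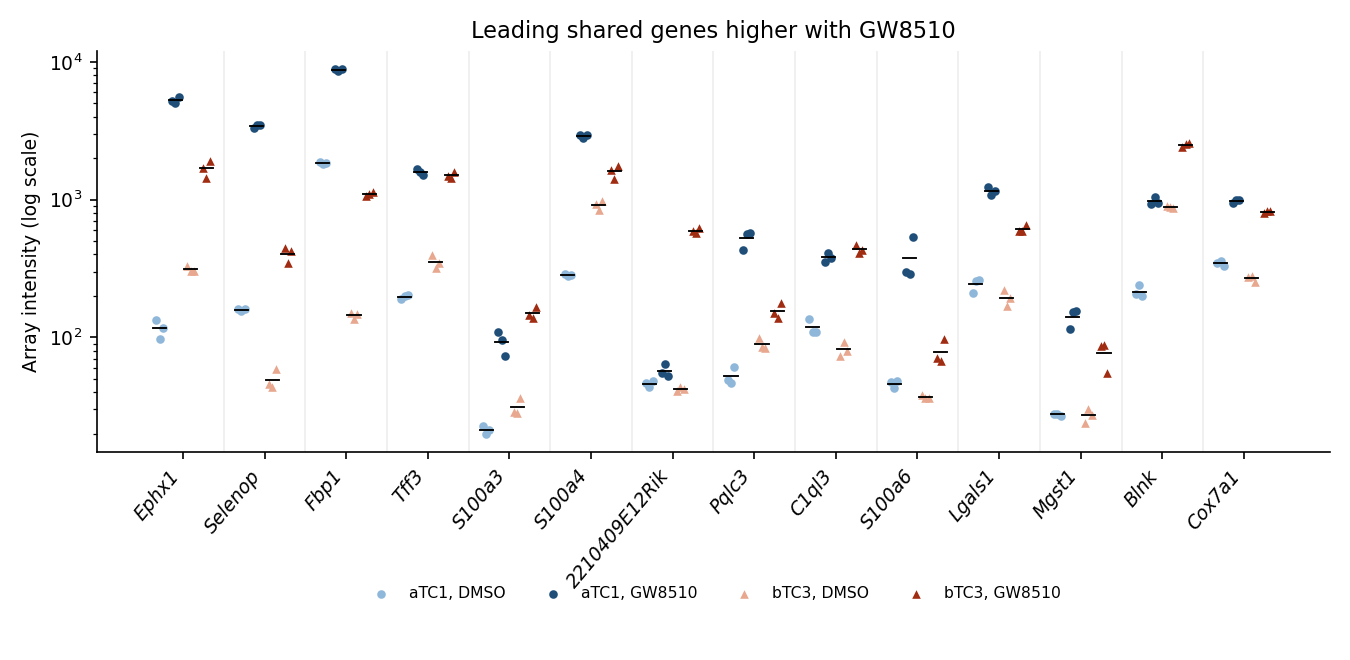
Array intensity (y axis, log scale) of the 14 leading genes higher in both lines, in order of average effect. Each symbol is 1 array, circles are aTC1 and triangles bTC3, pale symbols are DMSO and dark symbols GW8510, and a black line marks the mean of 3 arrays. Ephx1 and Selenop show the widest separation, and 2210409E12Rik separates widely in bTC3 only.

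The leading genes lower in both lines had a different makeup, with several genes of neurons and of granule release. Cplx2, complexin 2, which clamps and primes SNARE-driven exocytosis, was the brightest of them. It read 2159, 2032 and 1960 with DMSO and 513, 508.5 and 533 with GW8510 in aTC1, and 2368, 2348 and 2306 against 648, 611 and 694 in bTC3. In both lines the GW8510 arrays lay far below the DMSO arrays, and the average effect was -1.92 ± 0.04 (3.77-fold lower). Cadps, which primes dense-core vesicles, had effects of -2.16 and -1.38, and Ptprn2, the granule membrane protein phogrin, of -1.53 and -1.73. Cartpt, a neuropeptide precursor, was 703, 744 and 842 against 106, 125 and 94.1 in aTC1 and 147.8, 125.6 and 133.4 against 85.3, 74.3 and 122.7 in bTC3, where the groups came close.

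The 2 lowest averages of all shared genes were those of Gpc6 and Ctnna2. Gpc6, a glypican that carries heparan sulfate at the cell surface, read 292, 244.4 and 239 with DMSO and 93.9, 53.7 and 45.8 with GW8510 in aTC1, and 454, 511 and 492 against 110.8, 132.0 and 124.3 in bTC3. Its average was -2.03 ± 0.14, while its other probe set gave -0.24. Ctnna2, the alpha-catenin of neurons, read 202, 180.5 and 211 against 50.7, 46.5 and 46.1 in aTC1 and 302, 269.1 and 268.9 against 66.6, 63.3 and 86.7 in bTC3, with an average of -2.01 ± 0.08. The effects of the lines were close for Gpc6 (-2.07 and -1.99) and Ctnna2 (-2.05 and -1.97), and neither difference passed the test (adjusted p = 0.890 and 0.776 in limma). Ctnnd2, delta-catenin, had effects of -1.27 and -2.07.

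The other leading lower genes were of mixed function. Atg10, an enzyme of autophagosome formation, had an average of -1.80 and Kit, the receptor of stem cell factor, of -1.76 (-0.64 in its other probe set). The neuronal transcription factor Myt1l had an average of -1.67 (-0.10 in its other probe set) and Rit2, a Ras-like GTPase of neurons, of -1.61 (-1.20 and -0.03 in its other probe sets). Cdk14, a kinase activated by cyclin Y, read 933, 1016 and 1084 against 338, 370 and 391 in aTC1 and 1108, 1081 and 1015 against 399.0, 381 and 409 in bTC3. Its effects of -1.46 and -1.43 were nearly equal, with -0.64 and -0.59 in other probe sets. Cpq, a carboxypeptidase, had an average of -1.47. Chac1, which degrades glutathione and is induced by ATF4, had -2.79 in aTC1 and -0.54 in bTC3.

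**Figure D3:**
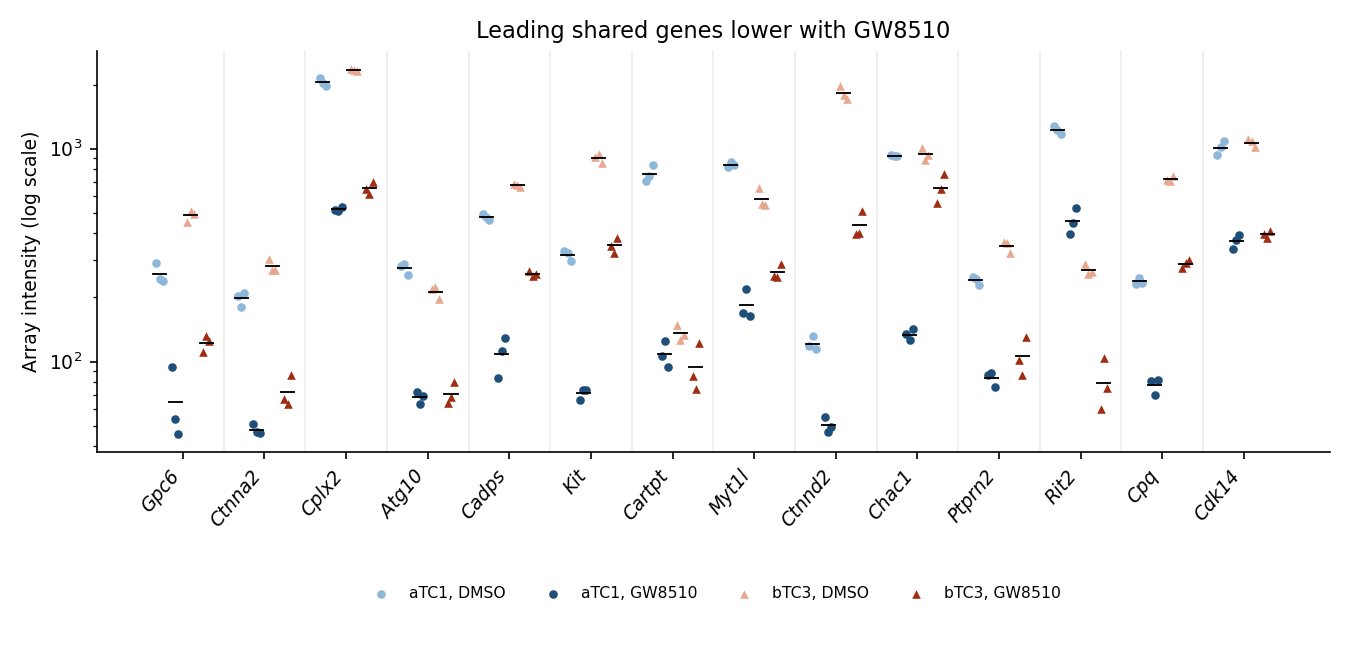
Array intensity (y axis, log scale) of the 14 leading genes lower in both lines, in order of average effect, with the same symbols as for the higher genes: each symbol is 1 array, circles are aTC1, triangles bTC3, pale DMSO, dark GW8510, and lines are means of 3. The arrays of Cplx2 separate widely and evenly in both lines, and those of Cartpt come close in bTC3.

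The leading lower genes were long. The median length of the gene, from its first to its last base in RefSeq (GRCm38.p6), was 342 kb for the 10 lowest by average effect and 481 kb for the 10 lowest by the smaller of the effects of both lines, against 9.36 kb and 13 kb for the 10 highest by each measure. Gpc6 spans 1055 kb, Ctnna2 1098 kb, Ctnnd2 857 kb and Ptprn2 792 kb, while Chac1 (3.09 kb) and Cartpt (11.7 kb) are short. Length was looked up after these genes had been seen, and it was then read over all genes with a length, 12237 of 12255. The median was 18.2 kb among genes higher in both lines, 35.1 kb among genes lower in both and 20.2 kb over all. Genes apart in opposite directions had a median of 21.9 kb.

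Of 299 genes longer than 300 kb, 84 (28.1%) were lower in both lines and 3 (1.00%) were higher in both, and the 3 were Oxr1, Sorcs3 and Eda. Among 3620 genes of up to 10 kb, 8.37% were lower and 11.4% were higher in both. The test of the average effect used the same arrays and probe sets as the rule and is not a separate check. It called 44.8% of the longest genes lower and 7.02% higher, against 16% and 24.3% of the shortest. The average effect had a median of -0.11 in the longest class, with -0.10 in aTC1 and -0.08 in bTC3, and of 0.07 in the shortest. Over all genes the Spearman correlation of length with the effect was -0.12 for the average, -0.10 in aTC1 and -0.13 in bTC3, and 0.00 for the difference between the lines (a description over 12237 genes measured on the same arrays).

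Many long genes were dim, so the genes were divided by mean intensity into 3 classes of equal size and read within each. Among bright genes (above 616), 29 of 35 genes over 300 kb (82.9%) were lower in both lines and 1, Oxr1, was higher, against 17.9% and 21.2% of 1125 genes of up to 10 kb. Among genes of middle intensity 50 of 122 (41.0%) were lower, against 9.09% of 1012 short genes. Among dim genes (up to 107) the shares were 3.52% and 0.67%. The median average effect of the 35 bright long genes was -0.85, with -0.80 in aTC1 and -0.71 in bTC3. Probe sets that had not been chosen for their gene gave a further reading on the same arrays. Of 247 such probe sets of genes over 300 kb, 21.9% lay lower in both lines and 0.81% higher, against 8.39% and 12.9% of 1514 probe sets of genes of up to 10 kb.

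**Figure D4:**
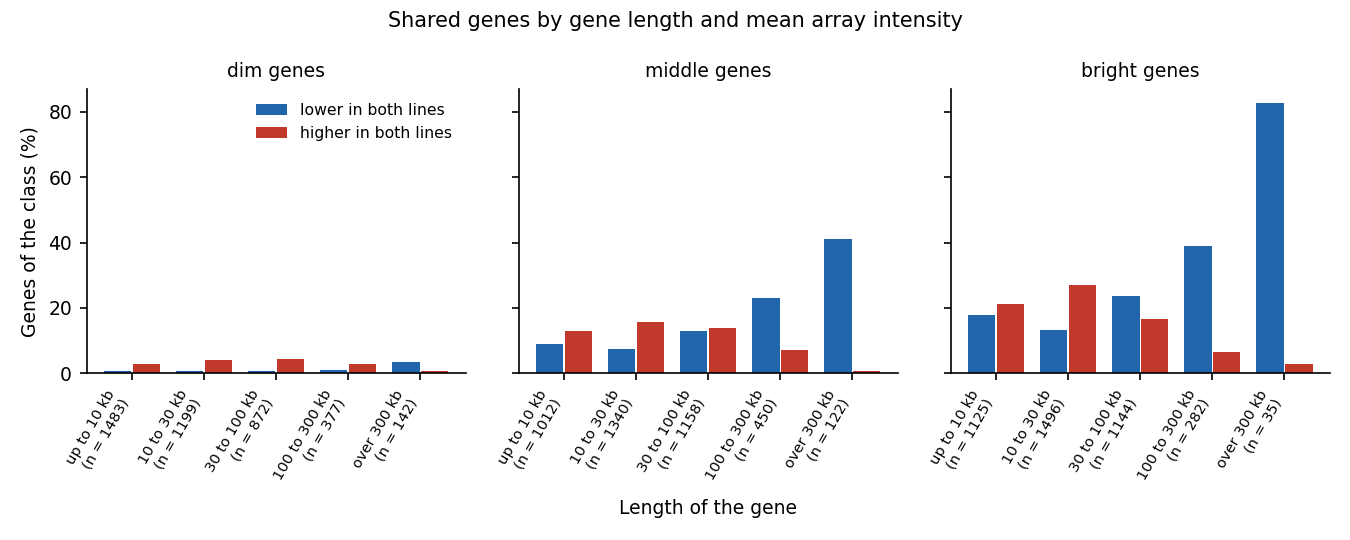
Share of genes (y axis, %) that were lower (blue) or higher (red) in both lines, by length of the gene (x axis, 5 classes, with the number of genes) and by class of mean array intensity (panels). Among bright genes the blue bar rises from 17.9% at up to 10 kb to 82.9% over 300 kb, while the red bar falls from 21.2% to 2.86%.

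The bright long genes described here were of several functions, and genes of neurons were not counted over the whole set. Its members not described here include Nbea (-1.26), Mapk10 (-1.09), Cacna2d1 (-0.92) and Cask (-0.90), all lower in both lines. Cdk14 and Gphn, the scaffold gephyrin of inhibitory synapses, were among the lowest. Gphn spans 467 kb and read 962, 906 and 911 with DMSO and 304.0, 329 and 386 with GW8510 in aTC1, and 1115, 1053 and 1064 against 454, 491 and 553 in bTC3. Its average effect was -1.28 ± 0.06, and its other probe set gave -1.38. Ank3, ankyrin G, which anchors membrane proteins to spectrin, had an average of -1.37 (-1.38 and -1.02 in others), and the cohesin gene Stag1 of -1.13 (-1.19 to -0.58 in others). Exoc4, of the exocyst, differed in size, with -0.55 in aTC1 and -1.55 in bTC3, and its other 4 probe sets had averages from -1.13 to -0.09. The DNA polymerase gene Pola1 (328 kb, -0.98) and the transcription factor gene Zbtb20 (-1.03; -0.88 and -0.78 in others) were also lower. The transcription factor gene Tcf4 had -0.92, with -1.20 to -0.08 in 5 others, and the RNA-binding protein gene Msi2 had -1.12, with -0.25 in its other probe set. Oxr1, an oxidation resistance gene of 414 kb, was the exception, with 385, 367 and 367 against 507, 577 and 568 in aTC1 and 972, 949 and 876 against 1288, 1334 and 1384 in bTC3. Of the other 5 bright long genes, Sh3kbp1 and Ppp2r2b lay apart in opposite directions and Tenm4, Pde4b and Ppargc1a lay apart in aTC1 alone.

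Genes of DNA replication were lower more often than higher. Of 45 measured genes of G1/S and DNA replication, 28 were lower on average, 5 were higher (Ccne1, Dbf4, Mcm10, Orc1 and Rrm2) and 12 were not called, and the list's median was -0.23. In aTC1 31 were called lower and in bTC3 19, and 5 (Chaf1b, Dbf4, Orc6, Rfc5 and Rpa2) lay apart in opposite directions. Both lines shared 21 lower and 2 higher members (46.7% and 4.44% of the list). Mcm6, a subunit of the replicative helicase, read 5214, 5164 and 5408 with DMSO and 2815, 2753 and 2773 with GW8510 in aTC1, and 4242, 4051 and 4066 against 3082, 3163 and 3229 in bTC3. The groups were far apart in both lines, with an average of -0.65 and a larger effect in aTC1 (-0.92 against -0.38, adjusted p of the difference 9.1e-05 in limma). Pola1, the polymerase that starts new DNA strands, had an average of -0.98, its primase partner Prim2 of -0.61 and Pold1, of polymerase delta, of -0.56. Mcm2, Mcm3, Mcm4 and Mcm7 were lower in both lines, with averages of -0.50 to -0.36. Rrm1 met the rule at an average of -0.05 without passing the test, and Rrm2, the other ribonucleotide reductase subunit, was higher (0.29).

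E2F factors bind a short site in the promoters of such genes, and the promoters in RefSeq (GRCm38.p6) were searched for it in the 250 bases before and 50 after the start. A single promoter was listed for 7845 of the 12255 genes. The site was searched as TTTCGCGC or TTTGGCGC on both strands, and 1.52% of the 7845 promoters held a match, against 8 of 31 promoters of the replication list (25.8%) and 6 of the 16 whose genes were shared. Among all shared genes, 3.05% of 853 promoters of lower genes and 1.45% of 1031 of higher genes held it. The bases around a match before the start are shown for 3 genes that were lower in both lines, 5′ to 3′ on the strand of the gene, with the match in capitals.
Mcm6, chr1:128359720-128359777, minus strand: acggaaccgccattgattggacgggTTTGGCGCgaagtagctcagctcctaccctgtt
Pola1, chrX:93632261-93632318, minus strand: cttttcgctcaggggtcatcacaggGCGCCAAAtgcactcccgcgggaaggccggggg
Rfc3, chr5:151651209-151651243, minus strand: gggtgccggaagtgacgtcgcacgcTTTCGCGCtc
Mcm6 held the site at 47 bases before its start and at 2 overlapping places farther up, Pola1 at 138 bases and Rfc3, of the clamp loader, at 10 bases before it. A match describes the letters and is not evidence of binding. Orc1, which was higher (0.31), also held a match.

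Genes of G2 and mitosis went both ways. Of 44 measured, 24 were lower and 9 were higher on average, but the lines differed. In aTC1 30 were called lower and 4 higher (median -0.34), and in bTC3 9 were called lower and 14 higher (median 0.06). Both lines shared 10 lower and 3 higher members, and 9 lay apart in opposite directions. The condensin gene Smc4 (-0.83), Racgap1 of the central spindle (-0.64) and the kinesin genes Kif18a (-0.59) and Kif11 (-0.56) led the shared lower members. Kif11 read 1318, 1405 and 1362 against 737, 793 and 808 in aTC1, and 1649, 1905 and 1600 against 1399, 1362 and 1371 in bTC3, where the change was smaller. Birc5, Bub3 and Cdc25b were higher in both lines, at 0.21 to 0.33, although other probe sets of Bub3 gave -0.20 to -0.06.

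Among cyclins, kinases and their inhibitors, the shared genes went both ways. Of 25 measured, 11 were higher and 9 lower on average, and 7 and 6 were shared. The inhibitor genes divided. Cdkn1a (p21) rose in both lines, from 2143, 2237 and 2063 to 10892, 10348 and 10817 in aTC1 and from 3225, 3134 and 3322 to 4303, 4224 and 4982 in bTC3. That is 4.98-fold and 1.39-fold, and the difference passed the test (adjusted p = 7.4e-08). Cdkn2b (0.92) and Cdkn2a (0.50) were also higher. Cdkn1b (p27) was lower, at 2739, 2850 and 2809 against 979, 1145 and 1322 in aTC1 and 4518, 4817 and 4020 against 3101, 3090 and 3235 in bTC3, and Cdkn2c had an average of -0.35. Rbl1, the pocket protein p107, fell in both lines (-0.87 and -0.79, adjusted p of the difference 0.591). Cdk4 (-0.26) was lower, whereas Ccnd3, Cdk9 and Cdk7 were higher (0.65, 0.47 and 0.43). The last 2 kinases act on RNA polymerase II.

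Of 39 p53 target genes, 27 were higher and 5 lower on average (Cd82, Gadd45a, Sesn1, Sulf2 and Tgfa), and both lines shared 12 higher and 2 lower (Sesn1 and Sulf2). The study had shown several of them on the same samples, so the list is not independent evidence of direction. The median effect was 0.73 in aTC1 and 0.10 in bTC3. Ccng1, cyclin G1, was 1648, 1660 and 1597 against 11337, 11393 and 12103 in aTC1 and 1755, 1736 and 1651 against 2184, 2241 and 2270 in bTC3. The fold was 7.10 against 1.30. Perp, an apoptosis and desmosome gene, showed the reverse, with 1.22-fold in aTC1 and 7.95-fold in bTC3. Mdm2 was not shared, with 0.14 in bTC3 (adjusted p = 0.140) against 1.55 in aTC1. Among DNA repair genes 11 of 32 were higher (7 without replicate 2 of aTC1 with DMSO) and 10 lower. Over all genes 26.0% were higher and 20.7% lower. Chek2, a checkpoint kinase, had an effect of 0.76 in each line, at 221, 217 and 202 against 362, 348 and 377 in aTC1 and 396, 391 and 381 against 644, 702 and 636 in bTC3, and Ung, uracil-DNA glycosylase, and Atr were lower (-0.85 and -0.64).

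Lysosome genes had the largest share of members higher in both lines among the 28 lists. Of 43 measured genes of lysosome and autophagy, 33 were higher and 3 lower on average (Map1lc3a, Npc1 and Uvrag), with a median of 0.36. Both lines shared 26 higher (60.5%) and 2 lower. Gla, alpha-galactosidase A, read 147.5, 140.8 and 127.6 against 375, 437 and 451 in aTC1 and 1095, 1077 and 1065 against 2426, 2277 and 2574 in bTC3, an average of 1.38 (0.50 in its other probe set). Ctsd, cathepsin D, read 2278, 2297 and 2249 against 4542, 4552 and 4678 in aTC1 and 3131, 3156 and 3082 against 3873, 3987 and 3939 in bTC3. The fold of Ctsd was larger in aTC1. Man2b1, a lysosomal mannosidase, rose 7.58-fold in aTC1 and 1.39-fold in bTC3, an average of 1.70 on the log2 scale against 0.48 in its other probe set. The sialidase gene Neu1 rose 1.46-fold and 3.39-fold, an average of 1.15 against 0.12 and 0.66 in its other probe sets. The membrane glycoprotein gene Lamp1 had 0.36 and 0.37. Cd68, a lysosomal protein abundant in macrophages, which also stands in the immune marker list, had 3.41 and 0.22.

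Many lysosome genes carry the E-box CACGTG, bound by the factors TFEB and TFE3. It was held, on either strand since it is its own complement, by 9.45% of all 7845 promoters, by 10 of 32 promoters of the list (31.2%) and by 5 of the 22 whose genes were shared. Among all shared genes, 12.4% of the promoters of higher genes and 9.03% of those of lower genes held it. All matches of Gla and Ctsd are shown as examples of shared genes of the list that hold the E-box, which is in capitals.
Gla, chrX:134601202-134601255, minus strand: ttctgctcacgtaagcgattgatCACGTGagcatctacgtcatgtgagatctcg
Gla, chrX:134601169-134601224, minus strand: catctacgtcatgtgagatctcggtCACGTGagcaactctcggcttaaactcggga
Ctsd, chr7:142388042-142388077, minus strand: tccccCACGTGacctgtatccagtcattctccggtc
Ctsd, chr7:142387895-142387950, minus strand: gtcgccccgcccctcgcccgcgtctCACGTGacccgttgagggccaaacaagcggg
Their starts lie at 227 and 194 bases before the start of Gla and at 245 and 98 bases before that of Ctsd.

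Genes of lipid metabolism and of the NRF2 response were read in 3 lists. Of 36 genes of fatty acid oxidation and peroxisomes, 23 were higher and 2 (Etfa and Pex19) lower on average (1 lower without any 1 of 8 arrays, which include all 3 of aTC1 with DMSO), with a median of 0.36, and 16 were shared higher. Acaa2, a thiolase of beta-oxidation, read 473, 494 and 514 against 1172, 1134 and 1120 in aTC1 and 444, 399 and 459 against 647, 622 and 715 in bTC3, and Ech1 (0.93) and Acadl (0.86), enzymes of the same pathway, were higher as well. Fabp2, a fatty acid binding protein, had 3.33 in aTC1 and 0.25 in bTC3. Of 29 genes of sterol and fatty acid synthesis 13 were higher and 9 lower on average. By line, 10 were called higher and 11 lower in aTC1 (median -0.11), and 15 higher and 1 lower in bTC3 (median 0.25). Its shared members numbered 9 higher and 0 lower, led by Hsd17b7 (1.04), Fasn (0.75) and Idi1 (0.66), and 7 lay apart in opposite directions (Fads1, Fads2, Insig2, Scd1, Scd2, Srebf1 and Tm7sf2). Among 34 NRF2 targets 20 were higher and 3 lower (Aox1, Gstm5 and Ugdh), with 10 shared higher. Hmox1, heme oxygenase 1, rose from 573, 600 and 506 to 2680, 2337 and 2662 in aTC1 and from 327, 358 and 340 to 690, 800 and 766 in bTC3.

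Genes of ribosome biogenesis that were called were mostly higher, by small amounts. Of 39 measured, 24 were higher on average, 3 lower (Ddx21, Gar1 and Nop58; 5 lower without replicate 3 of bTC3 with GW8510) and 12 were not called. In aTC1 18 were called higher and in bTC3 22, and 19 were shared higher. The median was 0.18, with 0.15 in aTC1 and 0.22 in bTC3. Nop2, an rRNA methyltransferase, read 1207, 1130 and 1243 against 1610, 1504 and 1524 in aTC1 and 372, 391 and 400 against 585, 583 and 643 in bTC3. Nop14 had 0.44 in each line and Nhp2, of the H/ACA ribonucleoprotein, 0.35 and 0.52. Interferon and antigen presentation genes were higher in 19 of 32 and lower in 2 (Psmb9 and Tap2), with 9 shared higher, and Cxcl10, a chemokine, was 1.49 and 1.16 in the lines. Of 37 proteasome genes 14 were higher and 5 lower (Psma3, Psma7, Psmb4, Psmb9 and Psmd1), and 7 were shared higher at small effects, from 0.15 for Psmb3 to 0.29 for Psmd8. Only 2 or 3 proteasome genes were called lower when any single array other than replicate 3 of either line with GW8510 was left out.

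**Figure D5:**
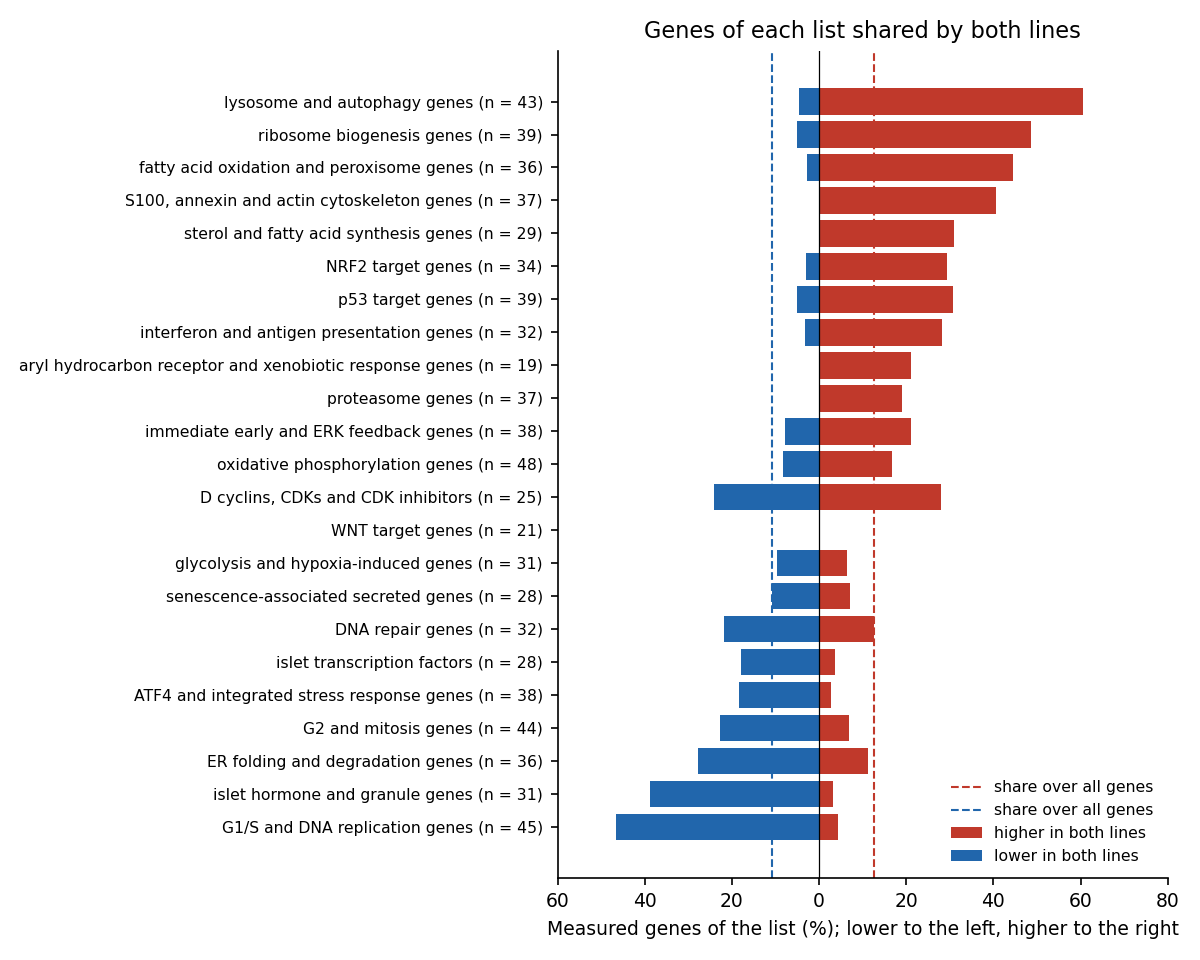
Share of the measured genes of each list (x axis, %) that were higher in both lines (red, to the right) or lower in both (blue, to the left). The lists of cell type markers are not drawn. The number measured stands beside each name, and dashed lines mark the shares over all genes (12.5% and 10.9%). Lysosome genes reach 60.5% on the right and DNA replication genes 46.7% on the left.

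Secretory genes were lower in both lines more often than higher. Of 31 islet hormone and granule genes 14 were lower and 9 higher, and the shared ones were 12 lower and 1 higher (Syt4, 0.22). Besides Cplx2, Cartpt and Ptprn2 they included Scg5, a chaperone of prohormone convertase (-0.56), the SNARE genes Snap25 (-0.47) and Vamp2 (-0.44), and Cpe (-0.36; 0.03 in its other probe set), which trims prohormones. Of 28 islet transcription factors, 7 were higher and 9 lower, beside 26.0% and 20.7% of all genes. Their shared members numbered 5 lower and 1 higher (Sox4, 0.75). Nkx2-2 read 1292, 1272 and 1456 against 556, 531 and 540 in aTC1 and 1771, 1696 and 1757 against 1242, 1282 and 1363 in bTC3. Myt1 was -0.65 and -0.97, Pax6 -0.95 and -0.22, and Isl1 -0.35 and -0.32. Pdx1, by contrast, moved in opposite directions (2.40 and -0.20).

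ER and stress genes were lower in part. Of 36 genes of ER folding and degradation 14 were lower and 11 higher, with 10 and 4 shared. The higher count was 7 without replicate 2 or 3 of aTC1 with DMSO, replicate 3 of aTC1 with GW8510 or replicate 1 of bTC3 with DMSO. Herpud1 (-0.80), of ER-associated degradation, Atf6 (-0.79), a sensor of unfolded protein, and the chaperone gene Hspa5 (-0.23 and -0.21) were lower, and Ero1b, an ER oxidase, was higher (0.64). Sel1l was lower by the probe set used (-0.44) and higher by its other 3 (0.43 to 0.61), so its direction is uncertain. Of 38 genes of ATF4 and the integrated stress response, 23 were lower and 3 higher (Sars, Sesn2 and Wars), but only 7 were lower in both lines, and 15 lay apart in opposite directions. Ddit3 (CHOP) and Trib3 showed this unevenness, with -2.35 in aTC1 for each, and -0.14 and -0.21 in bTC3.

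ATF4 binds a composite site, searched as TGATGNAA on both strands and found in 2.56% of all promoters and in 11 of 29 of the list (37.9%), with 2 matches among the 6 shared. Chac1 is shown since it was the lowest of the list, with the match in capitals.
Chac1, chr2:119351024-119351081, plus strand: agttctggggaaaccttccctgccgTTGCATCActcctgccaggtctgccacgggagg
The match lies 193 bases before the start. Over all shared genes the site was held by 2.23% of lower and 2.13% of higher promoters.

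The remaining motifs were read over lists and over shared genes in the same way. The CCAAT box (CCAAT) was held by 25 of 34 promoters of the mitosis list (73.5%) and 38.5% of all, and the cell-cycle homology region (TTTGAA) by 23 of 34 (67.6%) and 13% of all. Among shared genes the first was held by 40.0% of higher and 38.7% of lower promoters, and the second by 10.7% and 11.5%. Kif11 is shown as a lower mitosis gene, with the homology region in capitals on the opposite strand.
Kif11, chr19:37376338-37376381, plus strand: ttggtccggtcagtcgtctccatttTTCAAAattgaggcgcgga
The ER stress response element was held by 10 of 30 promoters of the ER list and 0.19% of all, and by 0.47% of lower and 0.10% of higher shared genes. The antioxidant response element (TGACNNNGC) was held by 13.7% of higher, 15.1% of lower and 14.4% of all promoters, and the p53 decamer by 6.30%, 6.80% and 6.97%. The hypoxia core ACGTG, which the E-box contains, was held by 26.6%, 27.4% and 23.7%. The xenobiotic core GCGTG was held by 54.1%, 57.3% and 46.7%, and the TATA box (TATAAA) by 7.37%, 4.57% and 10.5%. In the NRF2 list 6 of 22 promoters held the antioxidant element, but 0 of the 5 whose genes were shared. In the p53 list 5 of 22 held the decamer, and 1 of the 7 shared. The hypoxia core was held by 15 of 20 promoters of its list and 1 of the 2 shared. The xenobiotic core was held by 6 of 15 promoters of its list and 0 of the 2 shared. Base composition differed as well, with a median GC content of 60.7% in promoters of higher genes, 63.0% in those of lower genes and 59.7% in all, and its part in the motif shares was not tested.

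The other lists are given by their counts. Of 31 genes of glycolysis and hypoxia only 2 were higher and 3 lower in both lines, since 23 lay apart in opposite directions (median -0.63 in aTC1 and 0.61 in bTC3). The exceptions included Eno2, the enolase of neurons and endocrine cells, with 5603, 5541 and 5157 against 2996, 2756 and 2620 in aTC1 and 614, 550 and 523 against 278, 297 and 305 in bTC3, effects of -0.96 and -0.94. No measured WNT target of 21 was shared, and 1 was higher (Ccnd1; 4 without replicate 3 of aTC1 with GW8510) and 1 lower (Wif1; 2 without replicate 3 of bTC3 with GW8510) on average. Of 48 oxidative phosphorylation genes 12 were higher and 7 lower on average, beside 26.0% and 20.7% of all genes. Of these 48 genes 8 were shared higher and 4 shared lower, beside 23.4% shared over all genes. Among immediate early genes 14 of 38 were higher and 9 lower, beside the same shares of all genes, 26.0% and 20.7%, and 8 and 3 were shared. The Krüppel-like factor genes Klf4 (1.25), Klf2 (0.91) and Klf6 (0.81) and the AP-1 gene Junb (0.95) were higher in both lines. The 3 shared lower members were Etv5, Spred2 and another AP-1 gene, Jund, and Jun and Atf3 lay apart in opposite directions. By line, 11 immediate early genes were called higher and 10 lower in aTC1, and 14 higher and 3 lower in bTC3. Of 19 genes of the aryl hydrocarbon receptor and xenobiotic response 7 were higher and 1 lower (Tiparp), including the drug pump genes Abcc3 and Abcb1a (0.70 each). Of 28 senescence-associated genes 5 were higher (Cxcl1, Cxcl2, Plat, Plaur and Timp2) and 5 lower (Cxcl12, Igfbp4, Vegfa, Hmgb2 and Lmnb1). Both counts lie below the shares of all genes, 26.0% higher and 20.7% lower. The shared lower ones included the nuclear proteins Hmgb2 (-0.82) and Lmnb1 (-0.44). Of 12 alpha cell markers 7 were higher on average and 2 lower (Irx2 and Peg3), with Loxl4 shared higher and Peg3 shared lower. By line, 3 alpha cell markers were called higher and 3 lower in aTC1, and 4 higher and 1 lower in bTC3. Gcg counts among the 7 by its bTC3 arrays alone, since its aTC1 arrays were all at the upper bound. Ttr counts by its aTC1 arrays alone, since its bTC3 arrays were all at that bound. Of 9 beta cell markers 5 were higher on average (G6pc2, Iapp, Ins2, Pdx1 and Slc2a2), 1 (Nkx6-1) was lower and none was shared. Ins2, at the upper bound on all bTC3 arrays, counts by its aTC1 arrays alone, and Pdx1 (2.40 in aTC1, -0.20 in bTC3) and Slc2a2 (-0.10 and 5.12) lay apart in opposite directions. Krt7, a keratin of ducts, rose in both lines (1.41 and 0.82).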

How the data were processed

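The values are linear array intensities deposited by the authors, made with RMA (named without a version in the submitters' processing notes), which corrects background, normalizes arrays and summarizes probes. They lie between 20 and 20000, bounds that the sources used here do not explain. Log2 was taken with no pseudocount. Of 22690 probe sets, 20380 carry 1 gene symbol, and each of 12255 genes was read from its probe set with the highest mean. The number of arrays limits precision (median SE of an average effect 0.06, log2). The source names of replicates 2 and 3 with GW8510 give another code number than their titles and compound labels, which were used.

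All 12 arrays were fitted with limma 3.58.1 in R 4.3.3 (group means, contrasts, empirical Bayes), with Benjamini-Hochberg adjustment over all genes, tested on simulated data first. No test of the array data is named in the methods. Arrays with the same replicate number did not deviate together (correlations of deviations from -0.13 to 0.08), so they were not treated as pairs.

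Members and gene lists were chosen with earlier results of these data known. The text names the 10 highest and lowest shared genes by average and by smaller effect and up to 4 leading shared members of each of 28 lists. Other genes named, gene length and the p53 motif were chosen after values were seen. Alternatives were renormalization, other probe sets, filters, a pseudocount of 16, other estimates of spread, array weights, a replicate block and leaving out each array.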

Additional observations from a re-analysis of the deposited data

Results flagged for a closer look

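Of the 28 leading genes shared by both lines, 20 differed in the size of their response between the lines by limma's test of the difference at an adjusted p under 0.05. The rankings by average and by smaller effect used the same line effects as this test. The count of 20 therefore describes the genes chosen and is not a rate for shared genes. The values are log2 effects in aTC1 minus those in bTC3. Among higher genes, Ephx1 (3.08), S100a4 (2.54), Pqlc3 (2.52), S100a6 (1.90), Selenop (1.38), Tff3 (0.91), Mgst1 (0.87), Blnk (0.68) and Lgals1 (0.59) moved more in aTC1. The genes 2210409E12Rik (-3.51), C1ql3 (-0.73) and Fbp1 (-0.67) moved more in bTC3. Among lower genes, Cartpt (-2.26), Chac1 (-2.25), Myt1l (-1.06), Cadps (-0.79), Kit (-0.79), Atg10 (-0.41) and Cpq (-0.30) fell more in aTC1, and Ctnnd2 (0.80) fell more in bTC3. The other 8 leading genes did not pass this test, which does not show that their effects were equal.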

How the results depend on the processing

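Under a gap of at least 0.1 (log2) between the arrays of each line, 859 genes were higher, 836 lower and 302 opposite. With adjusted p under 0.05 in each line as the definition, the counts were 1111, 1108 and 447. With array weights, 697 genes were called in opposite directions. With the replicate number as a block, in spite of the absent pairing, 3061 genes were higher and 2458 lower on average, and of the counts over all genes none moved by over 1.5 times. Leaving out each array in turn gave 2830 to 3415 genes higher and 2334 to 2797 lower on average, 1583 to 1735 and 1358 to 1744 shared, 853 to 1025 opposite, 938 to 1122 and 899 to 1250 called the same way in both lines, 348 to 479 called opposite, 806 to 1020 shared genes that differed in size, and 85 to 91 genes over 300 kb lower in both lines (127 to 141 on average). Under the other alternatives that change values, 83.9% to 100% of the shared genes remained shared. Of the 56 counts of members higher or lower on average over the 28 lists, 15 moved by over 1.5 times under at least 1 alternative. Those with a main count of at least 3 were higher DNA repair genes (11 against 7), higher ER genes (11 against 7), lower oxidative phosphorylation genes (7 against 11 with array weights), lower lysosome genes (3 against 5 with array weights), lower proteasome genes (5 against 2 or 3, with 2 under the replicate block), higher acinar and ductal markers (5 against 3, also under the block) lower ribosome biogenesis genes (3 against 5) and higher fibroblast and endothelial markers (5 against 3 to 8). Without the dimmest 25% of genes, which leaves fewer members, the xenobiotic response list had 3 higher genes in place of 7 and the senescence list 3 in place of 5. The WNT targets had 2 to 4 higher and 0 to 3 lower in place of 1 each. Sel1l reversed, to 0.27 with the mean of all probe sets and to 0.61 without the _x_at and _s_at designs, and Timp2 had -0.013 with the mean of probe sets. The cause was not tested, apart from the disagreement of probe sets itself.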
